A study of Mus musculus with 39 samples.

Results

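The WT epiblast was followed here over the day from E5.5 to E6.5 of mouse development. The members were chosen by stage and genotype: the 2 WT epiblast libraries of E5.5 and the 9 WT epiblast libraries of E6.5, 11 of the 39 libraries of the series. Each library was the RNA of a single epiblast from Stat3 heterozygous inter-crosses on a CD1 background, found to be WT by genotyping of its extraembryonic tissue. Visceral endoderm and extraembryonic ectoderm had been pulled off each epiblast with a fine glass pipette, and the RNA was turned into stranded total RNA libraries for very small inputs. Stat3 null littermates of the same stages, in which part of the Stat3 coding region is replaced by a neomycin resistance cassette, 4 at E5.5 and 8 at E6.5, were used for 1 comparison at the end. With 2 libraries at the earlier stage, differences were read against a spread that came mostly from E6.5.

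The epiblast is the pluripotent tissue that gives rise to the body. Soon after implantation it leaves the naive state, which rests on factors such as Esrrb, Klf4 and Zfp42 and on LIF and STAT3 signalling in culture, and becomes a polarized epithelium in a formative and then primed state under Otx2, FGF and Nodal. Pou5f1 and Sox2 act in all these states, often together on DNA sites that pair an octamer with a SOX motif. From the middle of the following day, BMP, Wnt and Nodal signals set off gastrulation at the primitive streak, while the anterior epiblast moves toward neuroectoderm.

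Promoters of 3 members of this network are shown because their transcripts took different courses: Nanog and Pou5f1 rose and Zfp42 fell (below). The RefSeq windows, on GRCm38.p6, hold the 250 bases before the transcription start on the coding strand. Capitals mark ATGCAAA, or TTTGCAT on the other strand, which is a part of the octamer and not all of it. They are called the octamer letters below.
Nanog, chr6:122707239-122707488, plus strand: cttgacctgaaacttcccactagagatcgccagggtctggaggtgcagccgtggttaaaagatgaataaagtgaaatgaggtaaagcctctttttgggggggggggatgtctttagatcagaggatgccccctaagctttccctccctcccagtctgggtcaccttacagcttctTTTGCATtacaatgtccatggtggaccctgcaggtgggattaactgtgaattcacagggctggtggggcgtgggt
Zfp42, chr8:43307010-43307259, minus strand: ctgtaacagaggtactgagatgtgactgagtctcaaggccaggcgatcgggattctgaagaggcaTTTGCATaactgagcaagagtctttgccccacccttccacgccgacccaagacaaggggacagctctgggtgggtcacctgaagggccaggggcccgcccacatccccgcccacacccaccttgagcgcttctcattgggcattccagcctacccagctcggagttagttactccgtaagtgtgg
Pou5f1, chr17:35505782-35506031, plus strand: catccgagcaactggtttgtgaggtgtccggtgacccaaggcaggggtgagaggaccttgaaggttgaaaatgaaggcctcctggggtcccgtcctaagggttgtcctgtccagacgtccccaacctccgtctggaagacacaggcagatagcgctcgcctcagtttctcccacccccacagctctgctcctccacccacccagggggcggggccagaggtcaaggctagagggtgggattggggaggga
The octamer letters began 75 bases before the start in Nanog and 185 bases before it in Zfp42, and were not found in this window of Pou5f1. The capitals of the Nanog window were followed after 1 base by ACAAT, which together make the longer motif, these octamer letters with a SOX motif, searched on both strands. Of 32851 RefSeq windows, 4.12% held ATGCAAA on either strand and 0.0244% held the longer motif, which contains the shorter. Counted by gene, 1257 of the 27025 genes with a window (4.65%) had ATGCAAA in at least 1 of theirs. Among genes with a window, so did 20 of the 354 that rose between the stages (5.65%), 13 of the 396 that fell (3.28%) and 465 of the 12051 tested (3.86%). A match of letters is a description of the window and not a binding site.

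Depth was 26600944 and 28445002 counts at E5.5 and 28837665 to 70922482 counts at E6.5, where WT 1 to 3 had over 40000000 counts and WT 4 to 9 fewer. Epiblast identity markers were present in each library: 8 genes summed to 2497 and 4023 CPM (counts scaled to a common library total) at E5.5 and to 4337 to 6944 CPM at E6.5. Markers of the neighbouring tissues were not absent, and in such bulk RNA fewer cells of a type and less RNA per cell cannot be told apart. The sum of the visceral endoderm list, 20 genes, was 11120 and 12474 CPM at E5.5. At E6.5 it was 6869 CPM in WT 3, 2126 in WT 1, 1300 in WT 4, 712 in WT 2 and 329 to 467 in WT 5 to 9. Lrp2, an endocytic receptor on this list, gave 4853 and 4482 CPM of the E5.5 sums. Without Lrp2 the sum was 6266 and 7991 CPM at E5.5, and 6059 CPM in E6.5 WT 3, close to the lower E5.5 value. It was then 1708 CPM in WT 1 and 103 to 976 CPM in WT 2 and WT 4 to 9. Of the 12 extraembryonic ectoderm markers the sum was 316 and 56.2 CPM at E5.5 and 4.92 to 26.0 CPM at E6.5. Both tissues' markers were lower at E6.5 than at E5.5. The E6.5 library closest to E5.5 was WT 3 for the visceral endoderm sum and WT 4 for the extraembryonic ectoderm sum. Maternal and blood markers stayed between 3.01 and 14.0 CPM. Both E5.5 epiblasts had 1099 to 1271 CPM of Xist and at most 0.977 CPM of 4 Y-linked genes. At E6.5 WT 1, 6, 8 and 9 had 157 to 180 CPM of these Y-linked genes, so sex was unbalanced between the stages. The 3 deepest libraries were mixed. WT 2 and WT 3 had 11.5 and 10.1 CPM of the Y-linked genes beside 1019 and 948 CPM of Xist, and WT 1 had 70.5 CPM of Xist. The source of these mixed values was not tested. The part of these differences in the results below was not tested beyond the values given beside them.

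**Figure D1:**
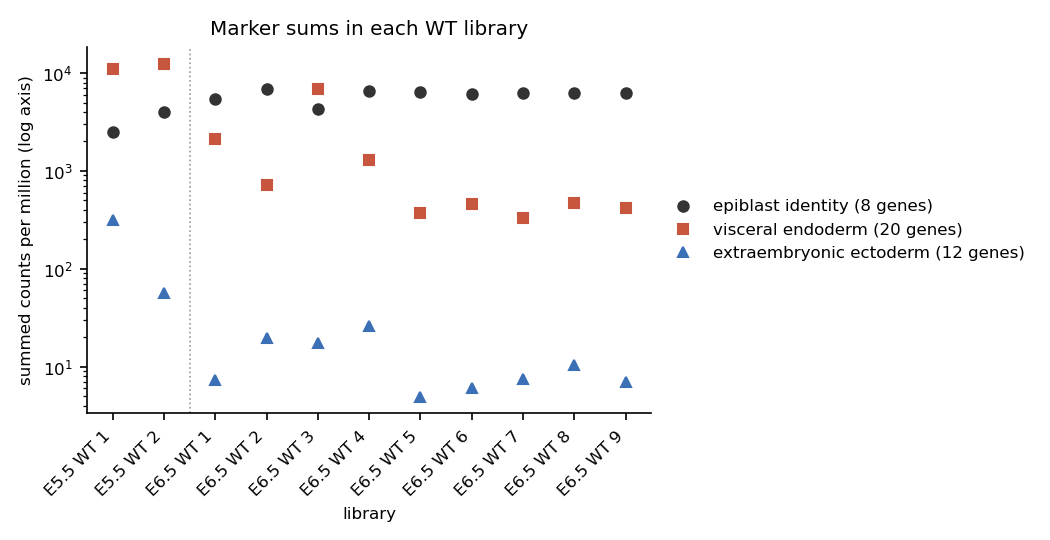
Summed CPM of 3 marker lists (vertical axis, log scale) in each WT library (horizontal axis), 1 point per list and library, with no error because each point is 1 library. Visceral endoderm markers lie at 11120 and 12474 CPM in the E5.5 libraries and at 6869 CPM in E6.5 WT 3, and reach at most 2126 CPM in the other 8.

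Between E5.5 and E6.5, 1070 of 20763 genes tested changed (5.15%), of which 523 rose (2.52%) and 547 fell (2.63%). The counts of called list members below are to be set beside these shares. A gene was called where edgeR's quasi-likelihood test gave an adjusted p under 0.05 (Benjamini-Hochberg over all genes tested) and a log2 fold change over 1 in size. Of these calls, 452 of the genes that rose and 492 of those that fell did not overlap between the stages, against 16.6% of all genes tested. The median log2 fold change of all genes was 0.10. Protein coding genes made up 94.1% of the genes that rose and 95.8% of those that fell. Library WT 3 took part in both directions: it was the lowest E6.5 library for 54.7% of the genes that rose (23.1% of all genes tested) and the highest for 54.1% of those that fell (21.1% of all genes). Without it 2029 genes were called (3.96% of genes tested higher, 5.94% lower). Without E5.5 WT 1, which leaves 1 library at that stage that is assumed to vary like the others, 102 genes were called, 92 of them among the 1070 (0.291% of genes tested higher, 0.159% lower). With the log2 visceral endoderm sum as a covariate, 154 genes were called, 83 of them shared (0.578% of genes tested higher, 0.164% lower), and the signs of 520 of the 523 higher and 545 of the 547 lower calls stayed. With the extraembryonic ectoderm sum as a covariate 2 genes were called, and in the 7 libraries with over 500 CPM of Xist 130 genes. Both marker sums were higher in each E5.5 library than in any E6.5 library, so these covariates overlap with stage. Calls lost with them, here and below, therefore do not tell stage and marker RNA apart.

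**Figure D2:**
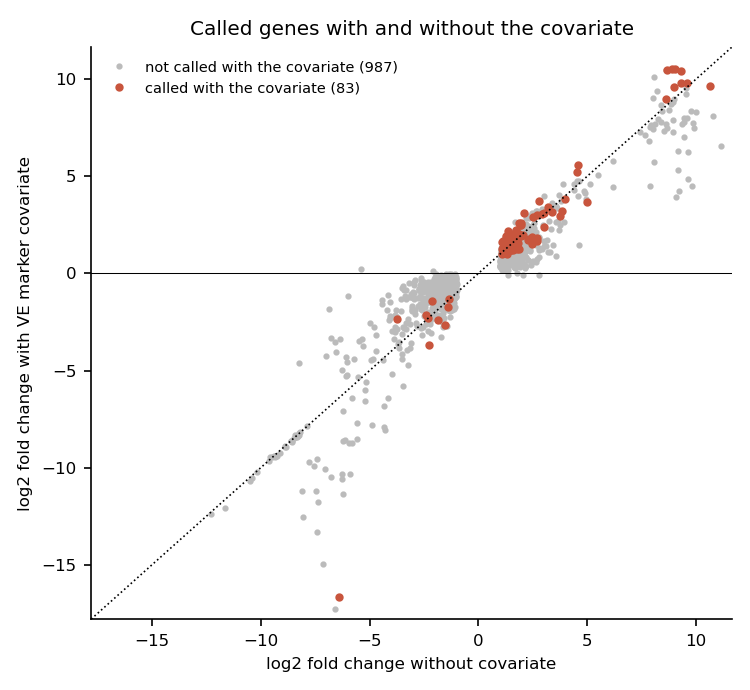
Log2 fold change (E6.5 minus E5.5) of each of the 1070 called genes without (horizontal) and with (vertical) the visceral endoderm marker sum as a covariate, 1 point per gene, with the dotted line at equality. The 83 genes called in both fits are coloured, and most grey points lie nearer 0 with the covariate than without it.

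All 12 core pluripotency genes tested had a positive log2 fold change, with a median of 0.53, and 2 of them rose. Pou5f1, the POU factor without which no pluripotent cells form, was at 170.3 and 293 CPM at E5.5 and at 398 to 681 CPM at E6.5 (median 630.1), and rose by a log2 fold change of 1.404 (SE 0.199, adjusted p = 0.00154). The stages did not overlap, and the lowest E6.5 value was that of WT 3. Lin28b, an RNA-binding protein that holds back let-7 maturation, went from 24.96 and 48.1 CPM to 67.3 to 154 CPM (median 130.2; log2 fold change 1.84, SE 0.29, adjusted p = 0.00285). Sox2, the SOX partner of Pou5f1, missed the fold threshold with 23.1 and 27.7 CPM against a median of 49.4 CPM (log2 fold change 0.96, adjusted p = 0.0125). Utf1 and Lin28a gave log2 fold changes of 0.22 and 0.47, with adjusted p = 0.504 and 0.05902. Without E5.5 WT 1 the call of Pou5f1 stayed (adjusted p = 0.0482) and that of Lin28b was lost (adjusted p = 0.0775), and with the visceral endoderm covariate both were lost (adjusted p = 0.0757 and 0.103).

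Of 11 naive genes tested, Zfp42 fell and Nanog rose. A negative log2 fold change was found for 9 of the 11 (median -2.96). Of the 11, DESeq2 called 5 lower and 1 higher, and edgeR without E6.5 WT 3 called 6 lower and 1 higher. Zfp42 (Rex1), a zinc finger protein used as a marker of the naive state, held 48.2 and 18.2 CPM at E5.5 and 0.761 to 8.27 CPM at E6.5 (median 1.91; log2 fold change -3.54, SE 0.67, adjusted p = 0.00733). Nanog, a homeodomain factor that is low in the epiblast around implantation and returns later in its posterior part, was at 2.44 and 5.87 CPM and then at 16.7 to 51.5 CPM (median 38.4). It rose in 9 of 9 E6.5 libraries (log2 fold change 3.11, SE 0.62, adjusted p = 0.00977), opposite to Zfp42, with which it shares the octamer letters in its promoter window. Esrrb was at 44.2 CPM in E5.5 WT 1 and 0 in WT 2, against a median of 1.23 CPM (adjusted p = 0.151), so the E5.5 pair lay on either side of most E6.5 libraries. Klf4, with 13.8 and 4.75 CPM against a median of 1.01 CPM, was lower in 9 of 9 libraries and did not pass (adjusted p = 0.157). Without E5.5 WT 1 the log2 fold changes of Zfp42 and Nanog were -2.66 and 2.59, and neither passed (adjusted p = 0.211 and 0.201). Both calls were also lost with the visceral endoderm covariate (adjusted p = 0.341 and 0.135).

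A further 14 genes known from the early epiblast and from naive cells in culture had a median log2 fold change of -2.45, and 3 of them fell. DESeq2 called 6 of the 14 lower, and edgeR without E6.5 WT 3 called 6 lower. Dppa5a, an RNA-binding protein of pluripotent cells, was at 67.4 and 72.9 CPM at E5.5 and at 4.06 to 19.3 CPM at E6.5 (median 5.81; log2 fold change -3.07, SE 0.49, adjusted p = 0.00339). It has 5 near-identical copies in the annotation, so its counts may be split. Pecam1, an adhesion molecule, fell from 25.04 and 6.36 CPM to a median of 1.15 CPM, and Zfp57, which protects imprints, from 39.96 and 33.1 CPM to a median of 11.97 CPM (Pecam1 -3.24 on the log2 scale with adjusted p = 0.0195, Zfp57 -1.37 with adjusted p = 0.0102). Dppa2, Dppa4 and Tdh were at medians of 2.196, 6.54 and 4.196 CPM at E6.5, and each was highest in WT 3, at 23.5, 34.8 and 21.6 CPM (adjusted p = 0.229, 0.4196 and 0.103). The log2 fold changes of Dppa5a, Pecam1 and Zfp57 without E5.5 WT 1 were -3.14, -1.94 and -1.24, and none of the 3 passed (edgeR, adjusted p = 0.0536, 0.573 and 0.203). The 3 calls were also lost with the visceral endoderm covariate, where the median of the 14 genes was 0.05.

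Among 16 genes of the formative and primed states 4 rose and none fell (median log2 fold change 0.51). Sox11, a SOXC factor of early neural and epiblast cells, was at 45.6 and 100.5 CPM and then at 182 to 324 CPM (median 271; log2 fold change 1.87, SE 0.26, adjusted p = 0.00156). Its relative Sox4 was at 63.4 and 141 CPM and at 194 to 242 CPM (log2 fold change 1.12, adjusted p = 0.00511), and its sequence is shared with Gm26735 on the other strand, so its counts are uncertain. Foxd3, a forkhead factor required in the epiblast, and Car14, a membrane carbonic anhydrase, rose with log2 fold changes 1.69 and 2.38 (in that order, adjusted p = 0.01003 and 0.00557), to medians of 65.2 and 99.3 CPM. Otx2, which drives exit from the naive state, was higher in 9 of 9 E6.5 libraries, at 89.1 and 144 CPM against 162 to 192 CPM, by less than the fold threshold (log2 fold change 0.64, adjusted p = 0.01301). The de novo methyltransferase Dnmt3b behaved alike (log2 fold change 0.97, adjusted p = 0.01196). Fgf5, a marker of post-implantation epiblast, gave 95.4 and 139 CPM against 83.6 to 125 CPM (log2 fold change -0.03, SE 0.15, adjusted p = 0.946). Of the 4 calls, Sox11 alone stayed without E5.5 WT 1 (adjusted p = 0.0286, and 0.0735, 0.0775 and 0.225 for the others), and none passed with the visceral endoderm covariate (edgeR, adjusted p = 0.0549 to 0.296).

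**Figure D3:**
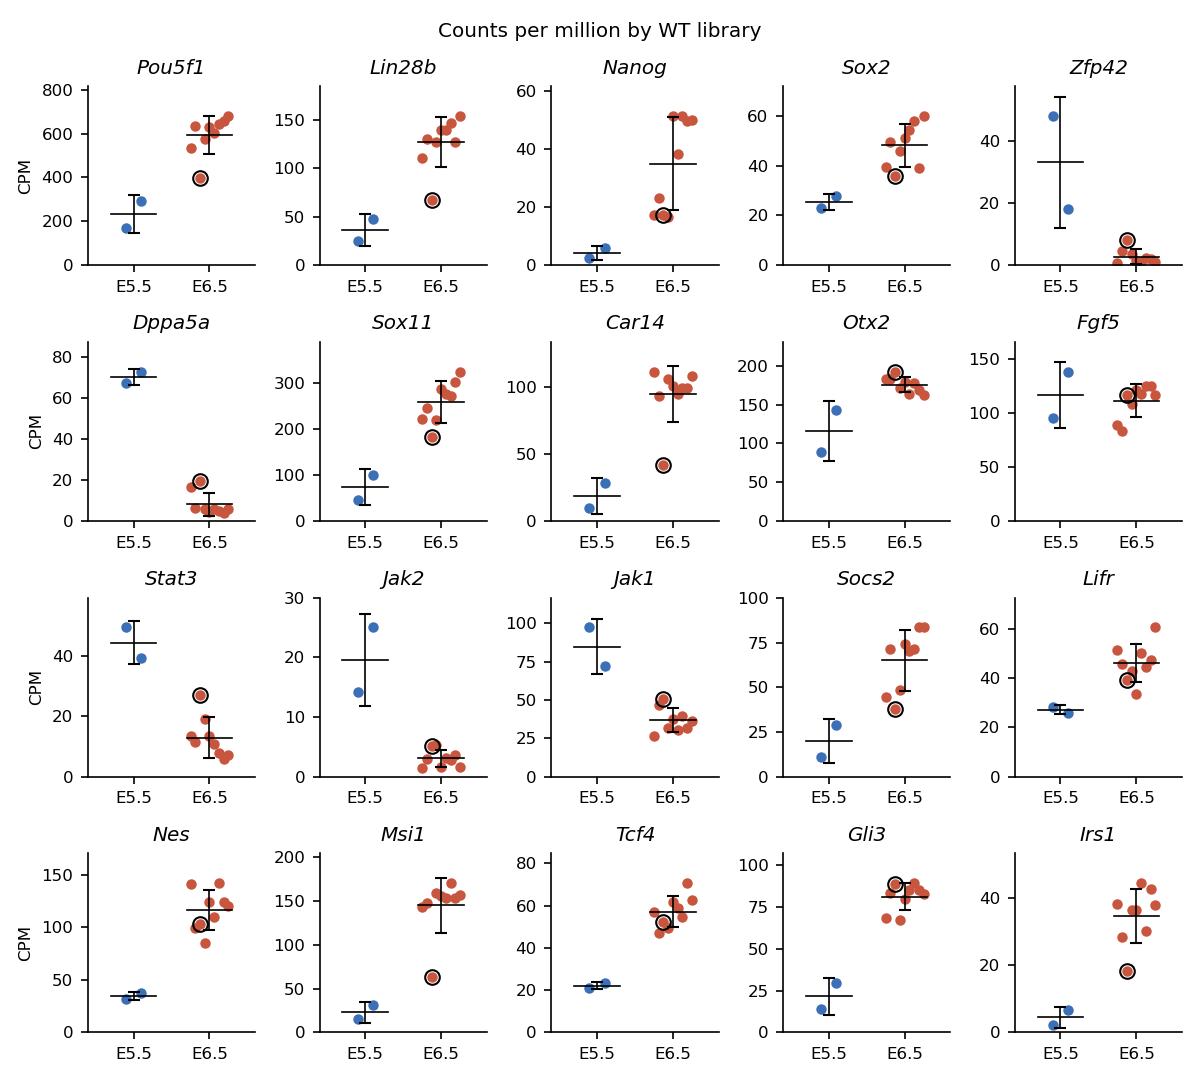
CPM of 20 genes (vertical axes, from 0) in the 2 E5.5 and 9 E6.5 WT libraries (horizontal axis), 1 point per library, with the mean as a line and the SD as a bar; the ringed point is E6.5 WT 3. The stages do not overlap in any panel except Fgf5, and WT 3 is the E6.5 point nearest to E5.5 for Pou5f1, Lin28b, Msi1, Car14, Zfp42, Dppa5a and Stat3.

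The genes of LIF, JAK and STAT signalling, through which STAT3 is phosphorylated, gave 1 gene that rose and 3 that fell of 21 tested (median log2 fold change -0.41). Stat3 itself was at 49.4 and 39.3 CPM at E5.5 and at 5.84 to 27.2 CPM at E6.5 (median 11.6), a fall of 1.74 on the log2 scale (SE 0.42, adjusted p = 0.0198). It was lower in 9 of 9 libraries, and the highest of these was WT 3. Both kinases of the pathway that were called fell with it: Jak2 from 14.2 and 25.03 CPM to a median of 2.91 CPM (log2 fold change -2.61, SE 0.44, adjusted p = 0.00381) and Jak1 from 97.5 and 72.2 CPM to a median of 36.4 CPM (log2 fold change -1.17, SE 0.21, adjusted p = 0.00505). Socs2, an inhibitor induced by the pathway and by other signals, rose from 11.3 and 28.6 CPM to a median of 71.3 CPM (log2 fold change 1.75, adjusted p = 0.0106). The receptor gene Lifr was higher in 9 of 9 libraries below the fold threshold (log2 fold change 0.797, adjusted p = 0.0209). Its partner Il6st, the ligand Lif and the feedback inhibitor Socs3, a STAT3 target, gave log2 fold changes of -0.35, -0.41 and -1.14 (in that order, adjusted p = 0.372, 0.905 and 0.564). Of the 4 calls, that of Jak2 stayed without E5.5 WT 1 (adjusted p = 0.0425), while Stat3, Jak1 and Socs2 gave log2 fold changes of -1.57, -0.94 and 1.198 with adjusted p = 0.261, 0.173 and 0.202. Stat3 was also lost without E5.5 WT 2 (adjusted p = 0.0523). With the visceral endoderm covariate the log2 fold change of Stat3 was -0.39 (adjusted p = 0.722) and that of Jak2 -1.81 (adjusted p = 0.25002).

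Fibroblast growth factor ligands and receptors gave 2 genes that fell of 11, and the ERK feedback genes, which report signalling downstream of them, 2 that rose of 14 (median log2 fold changes -0.61 and 0.48). Fgf4, which the epiblast makes, and Fgf8, of the streak, were at 40.1 and 59.9 and at 55.7 and 61.8 CPM at E5.5, and their E6.5 values straddled these (adjusted p = 0.698 and 0.943). Fgf4 at E6.5 was highest in WT 3, at 89.6 CPM against a median of 12.9 CPM. The call of Fgfr2, a receptor of the extraembryonic ectoderm, came from 1 library: 173 CPM in E5.5 WT 1 and 6.68 CPM in E5.5 WT 2, inside the E6.5 range of 1.41 to 13.3 CPM. Fgf10 fell from 29.02 and 43.7 CPM to a median of 2.58 CPM (adjusted p = 0.0306). Fgfr1, the main receptor of the epiblast, gave 134 and 102 CPM against a median of 140.0 CPM (adjusted p = 0.136). Spry2 and Etv1 rose, with 1.02 and 1.35 as log2 fold changes (in that order, adjusted p = 0.00626 and 0.00913), and Dusp6, an ERK phosphatase, was higher in 9 of 9 libraries below the fold threshold (log2 fold change 0.79, adjusted p = 0.00354). Each of the 4 calls was lost without E5.5 WT 1 (adjusted p = 0.945, 0.193, 0.116 and 0.198), Fgfr2 with a change of sign. Fgf10 was lost without any of 6 libraries and Spry2 without any of 10.

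The morphogen pathways of gastrulation are set here beside the 5.15% of all genes that were called. In the Nodal pathway 1 of 16 genes rose, Acvr2b, an activin receptor (log2 fold change 1.05, SE 0.195, adjusted p = 0.00573). Its call was lost without any 1 of 5 libraries, E5.5 WT 1 among them. Nodal itself was at 24.2 and 28.8 CPM against 11.2 to 30.2 CPM (adjusted p = 0.426), and its inhibitors Lefty1 and Lefty2 at medians of 1.54 and 6.39 CPM (adjusted p = 0.661 and 0.188). In the BMP pathway 1 of 16 genes rose and 2 fell. Bmp4 and Bmp8b, ligands that the extraembryonic ectoderm makes, were at 43.7 and 39.8 CPM in E5.5 WT 1 and at 8.44 and 0.949 CPM in E5.5 WT 2, and at medians of 1.204 and 1.35 CPM at E6.5 (adjusted p = 0.0209 and 0.0297). E5.5 WT 1 also had the higher extraembryonic ectoderm sum, 316 against 56.2 CPM, and without it both calls were lost, Bmp8b with a change of sign. The call of Bmp8b was lost without any 1 of 5 libraries, this one included. Id3, a target of BMP signalling, rose from 11.5 and 14.7 CPM to a median of 29.9 CPM (adjusted p = 0.0283). Its call was lost without any 1 of 6 libraries, both of E5.5 among them. Of 10 Wnt ligands and 18 Wnt response genes 1 each rose, Wnt5b (log2 fold change 2.68, adjusted p = 0.0126) and Sfrp2 (1.27, adjusted p = 0.04105). Both calls were lost without E5.5 WT 1 (log2 fold changes 2.32 and 0.93), and that of Sfrp2 without any 1 of 9 libraries. Wnt3, the ligand that starts the streak, reached 23.7 CPM at E6.5 but was at 1.26 CPM in 1 library (adjusted p = 0.1097), and Axin2, a target of canonical Wnt signalling, was higher in 9 of 9 libraries without passing (adjusted p = 0.0968).

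Primitive streak genes were spread widely among the E6.5 epiblasts. Of 17 tested none rose and 2 fell (median log2 fold change -0.08). By DESeq2, 2 rose and 5 fell. T, the T-box factor of the streak, was at 0 and 0.457 CPM at E5.5 and spread from 0 to 59.6 CPM at E6.5 (median 22.5), above both E5.5 libraries in 7 of 9 (adjusted p = 0.284). Mixl1 spread from 0.565 to 100.3 CPM at E6.5, around 14.999 and 34.3 CPM at E5.5, and Eomes from 83.9 to 456 CPM, around 412 and 317 CPM (adjusted p = 0.895 and 0.708). Mesp1 was 0 in both E5.5 libraries and reached 25.5 CPM at E6.5 (median 1.72, adjusted p = 0.338). The 2 genes that fell, Cdx2, which also marks trophoblast, and Pdgfra, a receptor of mesoderm and of extraembryonic endoderm, are shared with other tissues. They went from 18.6 and 2.53 and from 65.1 and 39.9 CPM to medians of 0.5899 and 8.26 CPM (adjusted p = 0.0213 and 0.0117), and neither passed without E5.5 WT 1 (adjusted p = 0.734 and 0.2195). Of 13 genes of epithelial-mesenchymal transition and adhesion, none was called by edgeR, 3 had an unadjusted p under 0.05 and DESeq2 called 1 higher and 1 lower. Cdh1, E-cadherin, was at 758 and 601 CPM against 618 to 765 CPM (log2 fold change 0.00, SE 0.11, adjusted p = 0.993).

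Neuroectoderm genes rose in part: 3 of 17 rose and 1 fell (median log2 fold change 0.71), while of all genes tested 2.52% rose and 2.63% fell. Nes (nestin), an intermediate filament protein of neural progenitors, was at 31.9 and 37.6 CPM and then at 85.3 to 142 CPM (median 119.8; log2 fold change 1.78, SE 0.18, adjusted p = 4.50e-04). Msi1 (Musashi), an RNA-binding protein of neural stem cells, was at 14.8 and 31.7 CPM and then at 63.7 to 170.3 CPM (median 154; log2 fold change 2.68, SE 0.36, adjusted p = 0.00156). Without E5.5 WT 1 their log2 fold changes were 1.65 and 2.21. Both calls stayed with the visceral endoderm covariate (edgeR, adjusted p = 0.01103 and 0.0456). They also stayed in the 20 WT libraries with a term for the Rps2-ps13 level described below (edgeR, adjusted p = 3.06e-04 and 8.67e-04), a term that the E7.5 libraries alone set. Zic5, a zinc finger gene of the anterior epiblast, rose by 1.68 (adjusted p = 0.00399; 0.129 without E5.5 WT 1). Sox21, which trophoblast also expresses, was at 23.2 CPM in E5.5 WT 1 and 0.281 CPM in E5.5 WT 2 (adjusted p = 0.0281; 0.961 without the former). Later neural factors were at or near 0 at both stages: the highest values of Pax6 and Sox1 were 1.16 and 4.03 CPM. A list of 26 genes of the neuronal cytoskeleton and of neuronal RNA binding, including Nes and Msi1, was made after the results were seen. It held 13 that rose and none that fell. With the visceral endoderm covariate 8 of the 26 were called higher, not all of them among the 13. In this list 6 were called without E5.5 WT 1, 6 in libraries over 500 CPM of Xist and none with the extraembryonic ectoderm covariate, where edgeR called 2 genes in all. Among them Dclk1, a microtubule-associated kinase, was at 0.526 and 1.93 CPM against 9.61 to 23.9 CPM (log2 fold change 3.83, SE 0.57, adjusted p = 0.00201), and Tubb3 at 2.37 and 4.11 CPM against 6.85 to 16.96 CPM (log2 fold change 1.98, adjusted p = 0.00963; 0.205 without E5.5 WT 1).

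The genes that rose with the smallest p were not chosen from any list: protein coding genes with non-overlapping stages included Rps2, Nes, Gpc1, Mapk4, Tcf4, Ttbk1, Armcx2, Mta1, Pdzd4, Cacnb2 and Dbn1, with log2 fold changes from 1.08 to 4.99. Tcf4, an E-protein, was at 21.1 and 23.3 CPM and then at 47.2 to 70.7 CPM (log2 fold change 1.401, SE 0.15, adjusted p = 4.84e-04). Mta1, a subunit of the NuRD complex, was at 118 and 122 CPM against 209 to 297 CPM. From low levels, Ttbk1, a tau kinase, went from 1.24 and 1.83 CPM to a median of 19.9 CPM, and Cacnb2, a calcium channel subunit, from 0.301 and 0.281 CPM to a median of 9.7002 CPM (log2 fold changes 3.77 and 4.99). Dbn1 (drebrin), an actin-binding protein, was at 48.9 and 85.5 CPM against 161 to 233 CPM. The 11 named here stayed called without any 1 of the 11 libraries, and 10 of them, Mta1 being the exception (log2 fold change 0.902), with the visceral endoderm covariate. These 11 were chosen by their p in the same libraries, so staying called without 1 of them is not an independent check. In the fit with the Rps2-ps13 term, which the E7.5 libraries set, Mapk4 and Pdzd4 were lost (edgeR, adjusted p = 0.555 and 0.761). Rps2 was lost too (adjusted p = 0.392), but it runs opposite to Rps2-ps13 and is not read there. With the extraembryonic ectoderm covariate edgeR called 1 gene higher and 1 lower in all. In libraries over 500 CPM of Xist, 76 of the 523 genes that rose stayed called.

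Receptors and transducers of Hedgehog and insulin-like growth factor signalling were among the genes that rose, in lists made after the results were seen. Of 13 Hedgehog genes 5 rose and none fell, with Gpc1, a glypican, at 31.8 and 26.6 CPM against 60.9 to 99.8 CPM, Gli3, a transcriptional effector, at 13.7 and 29.3 against 67.02 to 89.3 CPM, Smo, the signal transducer, at 63.5 and 76.1 against 111 to 183 CPM, and the co-receptor Gas1 among them. The log2 fold changes of these named genes were 1.61, 1.96, 1.25 and 3.18 (adjusted p = 4.84e-04, 6.31e-04, 0.00132 and 0.00514). Without E5.5 WT 1, Gas1 was lost (adjusted p = 0.131) and 3 of the 5 stayed. With the visceral endoderm covariate 2 of the 5 were called, Gpc1 and Gli3, and Smo and Gas1 were lost (adjusted p = 0.0555 and 0.136). Of 11 genes of insulin and IGF signalling 4 rose and 1 fell. The adaptor Irs1 was at 2.29 and 6.64 CPM against 18.1 to 44.3 CPM, Irs2 at 34.9 and 65.8 against 106 to 148 CPM, and the receptor Igf1r at 65.98 and 42.7 against 92.1 to 250.2 CPM (log2 fold changes 2.9997, 1.37 and 1.73, adjusted p = 0.00132, 0.00132 and 0.005098). The binding proteins parted: Igfbp2 rose (1.21) and Igfbp4 fell (-1.46), and without E5.5 WT 1 neither passed (adjusted p = 0.0741 and 0.103), while the log2 fold change of Irs2 was then 0.96, under the threshold. With the visceral endoderm covariate Irs1 and Irs2 stayed called and Igf1r and Igfbp2 did not (adjusted p = 0.131 and 0.0549).

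The 12 genes that fell with the smallest p were Baz1a, Clcn5, Agpat3, Lmna, Lrp10, Hdac6, Gng12, Glmp, Shisa5, Scd1, Lrp2 and Clmn, with log2 fold changes from -3.74 to -1.19. Baz1a, a chromatin remodelling subunit, was at 209 and 92.7 CPM and then at 19.4 to 32.4 CPM (median 28.9; log2 fold change -2.41, SE 0.21, adjusted p = 1.21e-04). Clcn5, a chloride and proton exchanger of endosomes, was at 271 and 185 CPM and then at 35.3 to 73.7 CPM (log2 fold change -2.14, SE 0.21, adjusted p = 3.37e-04). Lmna, which encodes the A-type lamins, was at 74.96 and 44.1 CPM and then at 3.299 to 11.8 CPM (log2 fold change -3.32, adjusted p = 6.10e-04). Lrp2 fell from 4853 and 4482 CPM to 226 to 809 CPM, and Scd1, a fatty acid desaturase, from 312 and 138 CPM to 41.5 to 74.6 CPM. The E6.5 maximum lay in WT 3, the library with the most visceral endoderm RNA of that stage, for 9 of these 12. With the visceral endoderm covariate Baz1a, Clcn5, Agpat3 and Scd1 stayed called (adjusted p = 0.0299, 0.0301, 0.0309 and 0.0205) and 7 others did not. Lrp2 is itself part of that sum, so its value in this fit is not read. Without E5.5 WT 1, Clmn was lost (adjusted p = 0.0753). Of 19 vacuolar ATPase genes, which acidify endosomes and lysosomes, 7 fell and 1 rose, and of 29 sorting nexins 6 fell and none rose; both lists were made after the results were seen, and none of these 14 calls passed with the covariate. Atp6ap2 and Atp6v1a fell, with log2 fold changes -1.95 and -1.12 (in that order, adjusted p = 0.00114 and 0.00201). Of 20 visceral endoderm markers tested 2 fell, Lrp2 and Gata6 (adjusted p = 0.04196). The call of Gata6 was lost without any 1 of 9 libraries, E5.5 WT 1 among them. Ttr, Apoa1 and Hnf4a, at medians of 4.64, 13.99 and 4.58 CPM, were at 71.3, 424 and 98.04 CPM in WT 3 and did not pass. DESeq2 called 11 of the 20 visceral endoderm markers lower, and edgeR without E6.5 WT 3 called 10 lower. Of 12 further trophoblast genes, chosen after the results were seen, 11 fell. Of the 12, 1 was called without E5.5 WT 1, and with the visceral endoderm covariate none was called by edgeR. Nppb was at 17.1 and 14.2 CPM at E5.5 and at 0 in all 9 E6.5 libraries, at least 205-fold lower against 3 counts per library. Krt7, Gata2 and Tfap2a were at 49.5, 45.8 and 47.5 CPM in E5.5 WT 1 and 13.3, 11.95 and 6.33 CPM in E5.5 WT 2, against medians of 4.48, 0.904 and 1.61 CPM, and without the former none of these 3 passed (edgeR, adjusted p = 0.193, 0.214 and 0.441). The part of visceral endoderm and trophoblast RNA in these falls was not tested; both marker sums fell with stage.

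**Figure D4:**
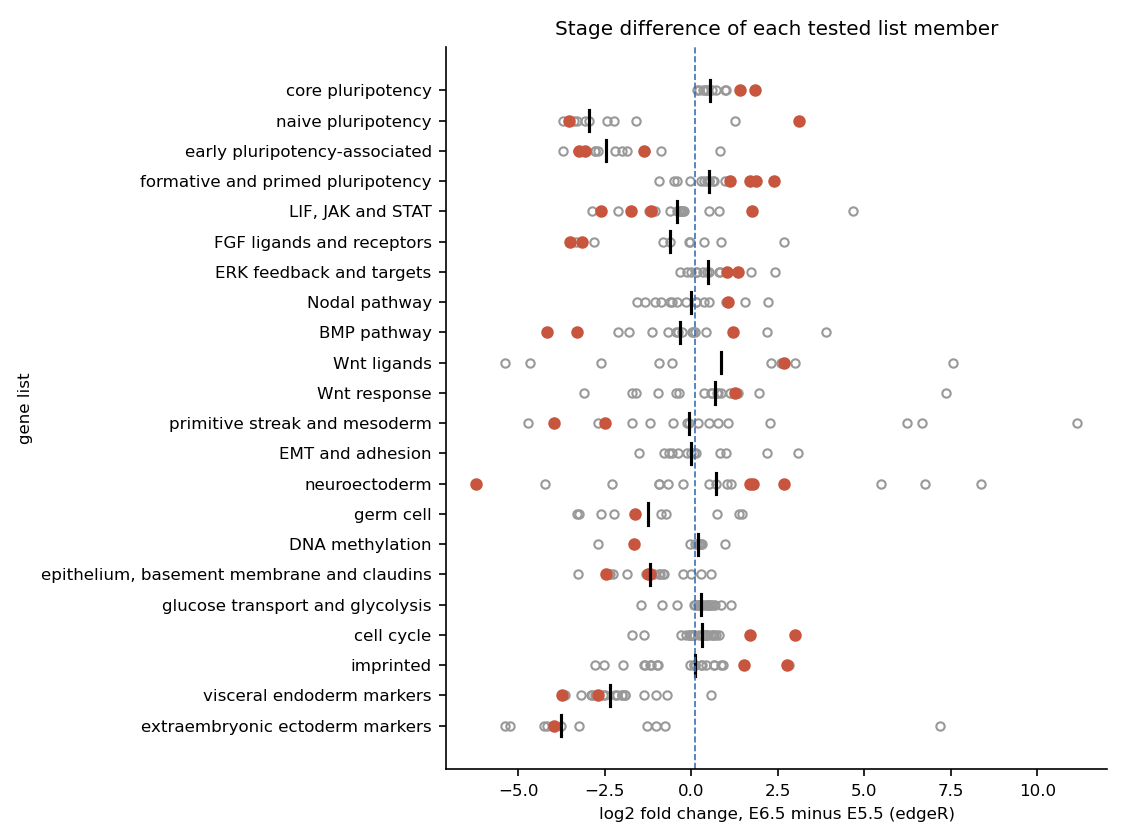
Log2 fold change (E6.5 minus E5.5, horizontal axis) of each tested member of 22 gene lists (vertical axis), 1 circle per gene, filled where called; the black bar is the list's median and the dashed line the median of all genes tested, 0.10. The naive, early pluripotency-associated and extraembryonic lists lie furthest to the left, with medians from -2.35 to -3.77.

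The lists in this paragraph stand beside 2.52% of all genes that rose and 2.63% that fell. Of 28 cell cycle genes 2 rose, the D-type cyclins Ccnd1 (37.3 and 70.7 CPM against 110.3 to 219 CPM; log2 fold change 1.6999, adjusted p = 0.002801) and Ccnd2 (1.43 and 1.86 against 4.98 to 19.6 CPM; 2.997, adjusted p = 0.00862), and the proliferation marker Mki67 gave 0.07 (adjusted p = 0.828). Both cyclins were lost without E5.5 WT 1 (adjusted p = 0.0775 and 0.167). Of 21 genes of glucose transport and glycolysis none was called by edgeR, 6 had an unadjusted p under 0.05, and DESeq2 called 1 lower. Of 10 genes of DNA methylation Tet2 fell (adjusted p = 0.0459), a call lost without any 1 of 9 libraries, E5.5 WT 1 among them. Dnmt3l was at 159.8 and 168 CPM against a median of 10.7 CPM and 132 CPM in WT 3 (adjusted p = 0.143). In the list of epithelium, basement membrane and claudins 3 of 19 fell, Cldn4, Ezr and Dag1 (median log2 fold change -1.20), and none of the 3 passed without E5.5 WT 1 (edgeR, adjusted p = 0.959, 0.287 and 0.577). Of 24 imprinted genes Nnat and Magel2 rose (1.52 and 2.77), whereas H19, Igf2 and Peg3 were at medians of 167, 16.9 and 234 CPM against E5.5 means of 1057, 198 and 696 CPM and did not pass (adjusted p = 0.177, 0.0564 and 0.0787). Of 10 germ cell genes Ifitm3 fell, of 16 p53 response genes Trp53inp1 fell, and of 12 immediate early genes Junb and Klf6 fell (adjusted p = 0.0377, 0.0249, 0.0379 and 0.0233). Each of these 6 calls of imprinted, germ cell, p53 and immediate early genes was lost without E5.5 WT 1. Left out 1 at a time, the libraries whose absence lost the call numbered 8 for Junb, 7 for Nnat and 6 for Ifitm3. They numbered 2 for each of Magel2, Trp53inp1 and Klf6. Hoxd8, the single HOX gene called of 8 tested, was at 0.977 and 1.27 CPM at E5.5 and 0 in all 9 E6.5 libraries, at least 14.7-fold lower, and was lost without any 1 of 8 libraries, both of E5.5 among them. No mitochondrially encoded gene of 13 and no replication-dependent histone gene of 65 was called by edgeR; 1 and 15 had an unadjusted p under 0.05, and DESeq2 called 0 and 3 (all higher).

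Of 79 ribosomal protein genes 2 rose, Rps2 and Rpl7a, where 2.52% of all genes tested rose. Both have near-identical copies in the annotation, 27 and 32 genes. The call of Rpl7a (edgeR, log2 fold change 2.49, adjusted p = 0.0376) was lost without any 1 of 8 libraries. It was also lost with the visceral endoderm covariate and with the Rps2-ps13 term described below. The lowest p of all belonged to the pair of Rps2 and its processed pseudogene Rps2-ps13, which took opposite courses. Rps2-ps13, named after its values were seen, was at 294 and 323 CPM at E5.5 and at 57.4 to 68.1 CPM at E6.5, and Rps2 at 336 and 309 against 627 to 804 CPM. Their sum was 631 and 632 CPM at E5.5 and 687 to 872 CPM at E6.5. This split did not follow stage alone. All 4 E5.5 Stat3 null libraries were over 200 CPM of Rps2-ps13 (269 to 310 CPM) and all 8 E6.5 null libraries under it (51.8 to 68.3 CPM). At E7.5, however, WT 6 and WT 8 were at 400.4 and 391 CPM while the other 7 WT were at 49.6 to 69.5 CPM. Between these 2 and 7 E7.5 epiblasts, edgeR found an adjusted p under 0.05 for Rps2-ps13 and Rps2 alone of 20188 genes (465 with an unadjusted p under 0.05). The groups were set by the Rps2-ps13 level, so its own result was fixed by the grouping. With 2 libraries in 1 group, the other genes are not shown to be alike. The part of this split in the stage difference was not tested beyond the following fit. A fit of the 20 WT libraries with Rps2-ps13 over 200 CPM as a term called 238 genes, 220 of them among the 1070, against 1520 in the same libraries without the term. Both E5.5 WT libraries were over 200 CPM and all 9 E6.5 WT libraries under it. The term was therefore set by the E7.5 libraries, 2 of them over 200 CPM, and calls kept or lost in this fit rest on those.

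**Figure D5:**
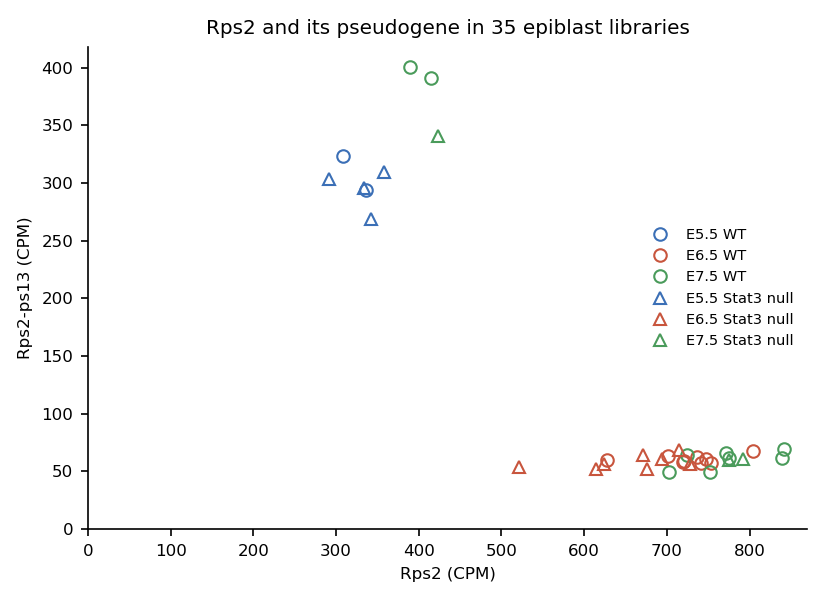
CPM of Rps2 (horizontal axis) and of its pseudogene Rps2-ps13 (vertical axis) in each of the 35 epiblast libraries, 1 point per library, coloured by stage, circles for WT and triangles for Stat3 null. All E5.5 libraries and 3 of E7.5 lie at 269 to 400 CPM of Rps2-ps13, and all others under 70 CPM.

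Whether the day from E5.5 to E6.5 differed without Stat3 was tested as an interaction of stage and genotype over 23 libraries. It called 3 of 22731 genes (0.0132%), and of the 1070 genes called in WT 99 had an unadjusted p under 0.05 in this test and 1 an adjusted p under 0.05. The 3 genes, Lrrc8c, a volume-regulated channel subunit, Adamts6, a secreted protease, and Fndc9, were at 0 in all 4 E5.5 null libraries, and their fitted differences therefore depend on the prior count. In WT, Lrrc8c was at 2.59 and 2.18 CPM and then at a median of 9.43 CPM, Adamts6 at 0.226 and 1.12 and then 9.41 CPM, and Fndc9 at 1.77 and 1.12 and then 1.61 CPM. The E6.5 null medians were 5.73, 7.42 and 2.48 CPM. In the other direction the smallest p belonged to Hist2h2ab, Zfp94 and Lims1 (differences of 1.80, 3.13 and 0.87, adjusted p = 0.520, 0.855 and 0.864), and none passed (edgeR; 1012 genes of the whole test had an unadjusted p under 0.05). Stat3 counts of the null libraries, which include exons outside the replaced part, were at 9.21 to 22.6 CPM at E5.5 and 1.41 to 7.59 CPM at E6.5, and its interaction was 0.19 (SE 0.72, adjusted p = 0.9999).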

How the data were processed

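RNA-seq of single WT epiblasts was analysed from the gene counts that the authors deposited. Per the study's methods and the submitters' processing notes, the authors aligned reads to GRCm38/mm10 with HISAT2 and made whole-number counts per gene with StringTie; the annotation version and the strand setting are not given in the sources used here. Of 47643 gene IDs, 47224 matched the reference annotation used here for gene type, position and overlap. Counts were fitted with edgeR 4.0.16 (R 4.3.3; quasi-likelihood, robust, TMM), after a filter by group with a minimum count of 10 and a minimum total of 15, and p-values are two-sided and adjusted by Benjamini-Hochberg over all genes tested. CPM values were computed from each library's total. SE is the log2 fold change divided by the root of the F statistic. limma 3.58.1 and DESeq2 1.42.0 gave alternatives, and the code was tested on simulated counts. The design had 2 and 9 libraries, each from 1 embryo.

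The members and lists were chosen with earlier results of these data known. Named were Stat3, the 12 protein coding genes with the smallest p in each direction among calls whose stages did not overlap, the called members and up to 4 role members of each list, and the 3 smallest p per direction of the interaction; genes of lists said to be made later, Rps2-ps13 among them, were chosen after their values were seen. A few genes that these rules would name are not reported here. Near-identical copies of named genes were sought among the reference transcripts with blastn 2.17.0, keeping alignments of 95% identity or more that spanned 50% or more of a transcript and 200 bases. Promoter windows came from RefSeq GRCm38.p6. Reads carry no molecular identifiers in these counts, so limits set from 3 counts cover counting error only.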

Additional observations from a re-analysis of the deposited data

Results flagged for a closer look

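In 97 sets of 9 E6.5 WT values, 17 had a highest or lowest library whose gap to the next, divided by the range (log2 of CPM plus 1), passed Dixon's 95% value, where chance flags about 1 in 20 sets, and sets that share a library are not independent. Library WT 3 stood apart low for Msi1 (ratio 0.824), Car14 (0.82), Magel2 (0.679), Zic5 (0.634), Gpc1 (0.627), Lin28b (0.601), Acvr2b (0.557), Pou5f1 (0.546), Smo (0.526) and Foxd3 (0.516). It stood apart high for Junb (0.584), Glmp (0.567) and Lrp2 (0.518). For Msi1, WT 3 was at 63.7 CPM and the next library at 143 CPM. This library also had the highest visceral endoderm sum of E6.5, 6869 CPM, and the fewest detected genes, 17961; their part in these gaps was not tested. Library WT 1 stood apart for Fgfr2 (0.599, low) and Tet2 (0.562, high), WT 6 for Klf6 (0.57, low) and WT 5 for Baz1a (0.537, low).

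The change from E5.5 to E6.5 differed by genotype for Fndc9 (interaction -9.50 on the log2 scale, adjusted p = 0.0312), Lrrc8c (-8.99, adjusted p = 0.00594) and Adamts6 (-7.47, adjusted p = 0.00594) by edgeR. All 4 E5.5 null libraries were at 0 counts for these genes, so the sizes depend on the prior count. Lrrc8c was called in each fit without 1 library. None of the 3 was called by voom or with the replicate block. Adamts6 was lost without E5.5 WT 2, and Fndc9 without several libraries, E5.5 WT 1 and E6.5 WT 3 among them.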

How the results depend on the processing

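The count of 1070 stage calls moved to 1936 with DESeq2, 2131 with voom (19.8% of them higher, against 48.9%), 434 with Y-linked genes as a covariate and 2698 with libraries under 40000000 counts. Chosen after seeing the data, fits with the visceral endoderm and extraembryonic ectoderm sums gave 154 and 2, libraries over 500 CPM of Xist 130, and the 20 WT libraries with the Rps2-ps13 term 238. Leaving out 1 library gave 102 (without E5.5 WT 1) to 2029 calls (without E6.5 WT 3). All 35 epiblast libraries gave 888 calls, 31.5% of them higher. The replicate block gave 101 calls, 49 shared with the 1070. The labels do not say whether the numbers pair the samples. Correlations of deviations were -0.0061 and -0.015 for the same-numbered libraries. With 2 E5.5 libraries the deviations mirror each other, so these values can neither show nor exclude pairing. The interaction count of 3 became 56 with DESeq2, 6 with voom (none of the 3 among them), 17 under 40000000 counts and 0 with the block (edgeR, 957 at an unadjusted p under 0.05), and 2 to 4 without 1 library. With genes over 1% of counts left out of the total, the epiblast sum at E6.5 was 7205 CPM and the visceral endoderm sum at E5.5 13901 CPM.

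Log2 fold changes reversed with the extraembryonic ectoderm covariate for Pecam1 (0.26), Bmp8b (1.51), Sox21 (0.10), Cldn4 (0.27), Dag1 (0.0329) and Junb (0.16). Further reversals were those of Foxd3 with the Rps2-ps13 term (-3.40) and of Sp5 with the block (-5.04). Apoa1 (1.91) is part of the visceral endoderm sum and Rps2-ps13 (0.37) defines its term, so their reversals in those fits are not read. Without 1 library Fgfr2 ranged from -4.49 to 0.25 and Bmp8b from -4.32 to 1.11. The cause was not tested. Of the 92 named calls, 56 were lost without E5.5 WT 1 (42 of them with the same sign and a log2 fold change still over 1 in size), 18 without E5.5 WT 2 and 70 with the visceral endoderm covariate. With 2 E5.5 libraries, the E5.5 spread is hardly measured, and a gene that missed the threshold is not shown to be unchanged.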
